A study of Mus musculus with 12 samples.

Results

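The response of wild-type mouse peritoneal macrophages to lipopolysaccharide (LPS) was described across 19938 genes, from 3 arrays of LPS-treated cells and 3 arrays of untreated cells. These 6 arrays were chosen by their sample titles out of 12 in the series. The cells came from female C57Bl/6 mice whose age is not stated in the labels. They were flushed from the peritoneal cavity and left to settle in culture plates for 2 h. The LPS group was then exposed to 1 µg/ml LPS during 4 h. For the untreated cells the labels give the 2 h of settling and no further time in culture. If the LPS cells were in culture for 4 h longer, that time and LPS cannot be told apart. Both groups carry no engineered allele, and the other 6 arrays, from Nfkbiz-/- cells under the same treatments, entered only the shared estimate of spread and 1 comparison near the end. The labels name no sort, so any cell that a peritoneal wash yields could be on the plate, and they do not say whether the 3 replicates came from separate mice. What the p-values measure is thus the scatter among these arrays alone, and that scatter may be technical.

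LPS is a glycolipid of the outer membrane of Gram-negative bacteria. Macrophages sense it through TLR4 with its partners MD-2 and CD14, which signals by MyD88 to NF-κB and the MAP kinases, and by TRIF to IRF3. The first branch is known for driving cytokine and chemokine genes, and the second for interferon-β, which then acts back on the cell to raise antiviral genes. Macrophages of the peritoneal cavity are long-lived phagocytes with a large lysosomal and scavenging apparatus.

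The deposited values are intensities, 1 per probe set, and differences are given in log2 units, in which 1 unit is a 2-fold change. A gene was called when its adjusted p in the limma fit was under 0.05, and SE is the standard error of that fit. Most macrophage markers were bright on all 6 arrays. Timd4 (162.6 to 384.3 over the 6 arrays) and, untreated, Icam2 (447 to 452) were dimmer. Adgre1, which encodes the macrophage surface protein F4/80, read 7927, 7051 and 8447 untreated and 6442, 6430 and 6977 with LPS (log2 difference -0.24, limma adjusted p = 0.0544, not called). It was called lower with array weights, with median centring, without dim genes, with a pseudocount of 16 and with the replicate number as a fixed term. Of 10 macrophage markers, 2 were higher (20%) and 4 lower (40%) with LPS. These counts and those of other cells below are to be read against 9.53% higher and 18.5% lower over all genes. The summed intensity of the 10 macrophage markers ran from 60470 to 62280 untreated and from 54520 to 54700 with LPS. That sum weighs the brightest members most. The mean log2 level of the same 10 markers did not fall, at 11.67 to 11.79 untreated and 11.75 to 11.82 with LPS. The 48 measured markers of B, T and NK, mast, dendritic, mesothelial and red cells, eosinophils and neutrophils included 1 called higher (Camp, 0.23) and 3 called lower (Cd79b, -0.98, Clec9a, -2.03, and Ccr3, -0.47). The call of Camp was lost in 5 of the 6 fits without 1 wild-type array (all but that without LPS replicate 3), with the replicate number as a fixed term and on the 6 wild-type arrays alone. The summed intensity of the 7 B cell markers ran from 1327 to 1964 untreated and from 1112 to 1477 with LPS. That of the 8 neutrophil markers ran from 681.1 to 921.4 and from 875.1 to 943.6, and that of the 6 dendritic cell markers from 3311 to 4522 and from 3496 to 4749. Ccr7 made up most of the dendritic cell sum (2095 to 4202 over the 6 arrays), and the mean log2 level of the same 6 markers ran from 7.77 to 7.87 untreated and from 7.51 to 7.55 with LPS. The part of these other cells in the results was not tested. In such bulk samples, fewer cells of a type and less RNA per cell cannot be told apart.

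The response was lopsided in a way that depended on its size. Of 19938 genes, 5594 were called (28.1%), of which 1900 were higher (9.53%) and 3694 lower (18.5%) with LPS. On the deposited scale small differences were mostly decreases, since among called genes between 0.5 and 1 log2 units only 24.1% were higher. The counts of increases and decreases by size are given for that scale alone. Large differences were mostly increases, and of the genes that moved by more than 4 units 19 were higher and 2 lower. At 2-fold or more, 461 genes were higher (2.31%) and 744 lower (3.73%), and at 32-fold or more 9 were higher and 0 lower. The share of increases among all called genes rested on how the arrays were scaled. It was 34% on the deposited scale, 44.5% after quantile normalization and 72.8% when each array was centred on its 75th percentile, which moved the median difference of all genes from 0.04 to 0.19. The upper quartile of intensity was 397 to 428.7 on the untreated arrays and 358.2 to 380.1 on the LPS arrays. The 1172 olfactory and vomeronasal receptor genes, which these cells are not known to use, held 35 higher and 2 lower calls as deposited, and 461 higher and 0 lower after that centring. The 35 became 11 without untreated replicate 3, 13 without LPS replicate 1, 21 without untreated replicate 2 and 22 without untreated replicate 1. At least 2-fold changes numbered 1205 on the deposited scale (6.04%) and 1136 after the centring. Where a list below changed its majority under that centring, this is said beside it.

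**Figure D1:**
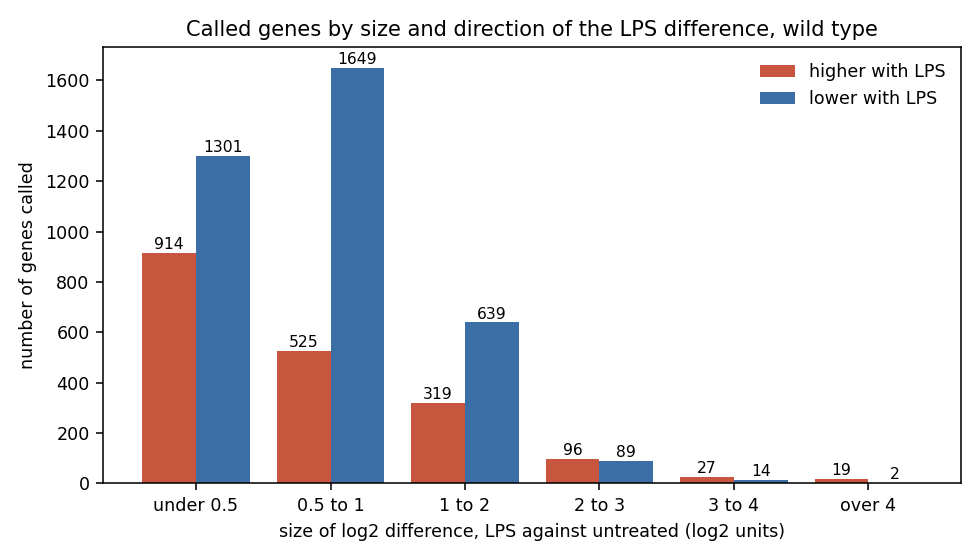
Number of genes called in wild-type cells (vertical axis) by the size of the log2 difference between LPS and untreated arrays (horizontal axis), with genes higher with LPS in red and genes lower in blue. Decreases outnumber increases up to 2 log2 units (639 against 319 between 1 and 2) and increases outnumber decreases above that (19 against 2 over 4). The counts are those of the deposited scale, and the direction of small differences depends on the array scaling.

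The gene most raised was Il6, the cytokine that drives the acute phase in the liver. Il6 read 94.7, 71.7 and 146 untreated and 11200, 12090 and 10080 with LPS (log2 difference 6.80, SE 0.34, limma adjusted p = 1.32e-07). All 3 treated arrays stood far above all 3 untreated ones. Csf2, which encodes the granulocyte-macrophage growth factor GM-CSF, read 36.2, 34.7 and 37.1 untreated and 1390, 1269 and 1531 with LPS (log2 difference 5.27, SE 0.11, limma adjusted p = 1.61e-10). It had the smallest p of all genes tested. Il23a, the specific subunit of interleukin-23, read 97.1, 98.3 and 81.4 untreated and 4207, 3545 and 4502 with LPS (log2 difference 5.47, SE 0.28, limma adjusted p = 1.72e-07). Csf3, the granulocyte growth factor G-CSF, read 149, 128 and 126 untreated and 6222, 7082 and 5704 with LPS (log2 difference 5.56, SE 0.61, limma adjusted p = 3.93e-05). Lif, a cytokine of the interleukin-6 family, read 102, 96.4 and 86.6 untreated and 4092, 4381 and 3978 with LPS (log2 difference 5.45, SE 0.36, limma adjusted p = 9.67e-07). In each of these 5 cytokine genes the dimmest treated array was far brighter than the brightest untreated one. That the groups did not overlap was required by the choice of the most raised genes.

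Chemokine genes made up 3 of the 15 most raised. Cxcl10, which draws activated T cells, read 151, 215 and 120.1 untreated and 9764, 14080 and 3191 with LPS (log2 difference 5.59, SE 0.54, limma adjusted p = 1.62e-05). The third LPS array was the lowest of the treated group and still above every untreated array, as the choice of the 15 required. Ccl4, the macrophage inflammatory protein-1β gene, read 225, 212 and 194 untreated and 5038, 6155 and 4551 with LPS (log2 difference 4.63, SE 0.16, limma adjusted p = 7.19e-09). Cxcl1, which draws neutrophils, read 453, 449 and 485 untreated and 11470, 11300 and 8832 with LPS (log2 difference 4.50, SE 0.25, limma adjusted p = 2.65e-07). The treated arrays of both lay closer together than those of Cxcl10. Ereg, which encodes the EGF receptor ligand epiregulin, read 96.7, 83.5 and 112 untreated and 3190, 3721 and 3782 with LPS (log2 difference 5.20, SE 0.24, limma adjusted p = 7.53e-08). Mmp3, the metalloproteinase stromelysin-1, read 61.7, 62.6 and 67.3 untreated and 1865, 1453 and 1877 with LPS (log2 difference 4.75, SE 0.42, limma adjusted p = 8.87e-06). Ereg and Mmp3 encode a growth factor and a matrix protease, so secreted proteins other than cytokines were among the leaders too. Il1f6, the interleukin-1 family member now called IL-36α, read 56.02, 46.02 and 49.2 untreated and 845, 1068 and 1452 with LPS (log2 difference 4.45, SE 0.51, limma adjusted p = 5.57e-05). Tpbpa, which is best known from the placenta, read 56.5, 67.5 and 33.9 untreated and 2818, 2871 and 2613 with LPS (log2 difference 5.77, SE 0.31, limma adjusted p = 2.04e-07). Phlda1, a pleckstrin-homology protein, read 257, 203 and 208 untreated and 4950, 5198 and 4027 with LPS (log2 difference 4.41, SE 0.38, limma adjusted p = 6.88e-06). Every LPS array of these 5 genes lay above every untreated one, which the choice of the 15 required. Over all genes this held for 23.2%. Rsad2 and Ifit1, both antiviral genes, complete the set and are described with their class below.

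Promoter sequence was compared between the genes that rose and fell most, because it is a property the arrays did not measure. Windows of 250 bases before to 50 after the transcription start, from RefSeq (GRCm38.p6), were found for 15563 of the 19938 genes, 95 of the 142 raised at least 4-fold and 83 of the 105 lowered at least 4-fold. Searches on both strands used 2 forms of the κB site, the core of the interferon-stimulated response element (ISRE), the cAMP response element TGACGTCA, the E-box CACGTG and the TATA box TATAAA. Either κB form was present in 3.32% of all windows, 10.5% of those of the raised and 2.41% of those of the lowered genes. The ISRE core was present in 3.31%, 15.8% and 1.2%, TATAAA in 12.1% of all windows and 21.1% of those of the raised genes, CACGTG in 8.41% of all, 7.37% of the raised and 13.3% of the lowered, and TGACGTCA in 2.49%, 3.16% and 0.0%. The median ratio of observed to expected CpG was 0.63 over all windows, 0.39 for raised and 0.68 for lowered genes. Some of this held at 4-fold and not at 2-fold. In the 343 windows of genes raised at least 2-fold the CpG ratio was 0.65 and TATAAA was present in 12.8%, close to all windows, while a κB form was present in 7.0% and the ISRE core in 11.1%. By list, 13 of the 23 windows of interferon-stimulated antiviral genes held the ISRE core and 0 a κB form, and a κB form was present in 6 of the 15 chemokine windows and 3 of the 16 cytokine windows. It was also present in 4 of the 36 windows of lysosomal genes (11.1%), a list that fell. A match is a string of letters and not a bound site.

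The sequences below show these letters in 5 of the most raised genes and, for contrast, in 1 of the most lowered. They were chosen because they hold a match, and among the 15 most raised genes 9 had a window, of which the other 4 (Tpbpa, Lif, Csf2 and Mmp3) held neither a κB form nor the ISRE core. Each is the 130 bases that end just before the start, written 5′ to 3′ on the gene's own strand, and capitals mark matches to a κB form, the ISRE core or TATAAA. Il6 lies on the plus strand at chr5:30012984-30013113, Cxcl10 on the minus strand at chr5:92348890-92349019, Cxcl1 on the plus strand at chr5:90891115-90891244, Ifit1 on the plus strand at chr19:34640759-34640888, Rsad2 on the minus strand at chr12:26456453-26456582, and Cd300lb on the minus strand at chr11:114934372-114934501.
Il6: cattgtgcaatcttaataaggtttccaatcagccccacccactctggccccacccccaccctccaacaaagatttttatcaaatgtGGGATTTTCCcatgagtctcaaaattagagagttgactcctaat
Cxcl10: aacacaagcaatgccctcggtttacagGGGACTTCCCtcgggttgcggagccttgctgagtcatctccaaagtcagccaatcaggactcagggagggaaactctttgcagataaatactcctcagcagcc
Cxcl1: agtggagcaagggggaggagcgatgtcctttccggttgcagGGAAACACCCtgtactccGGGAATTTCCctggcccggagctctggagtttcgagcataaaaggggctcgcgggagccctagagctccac
Ifit1: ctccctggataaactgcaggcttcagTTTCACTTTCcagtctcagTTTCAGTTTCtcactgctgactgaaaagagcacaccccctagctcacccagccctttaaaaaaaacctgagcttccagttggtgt
Rsad2: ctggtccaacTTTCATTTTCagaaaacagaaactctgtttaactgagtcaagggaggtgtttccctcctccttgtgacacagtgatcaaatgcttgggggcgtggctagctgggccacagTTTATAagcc
Cd300lb: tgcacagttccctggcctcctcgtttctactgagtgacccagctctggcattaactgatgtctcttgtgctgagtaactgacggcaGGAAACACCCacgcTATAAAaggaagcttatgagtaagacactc
Il6 carries GGGATTTTCC at 44 to 35 bases before its start, and Cxcl10 carries GGGACTTCCC at 103 to 94 bases. Cxcl1 has a pair of κB matches, of which the nearer, GGGAATTTCC, lies at 71 to 62 bases. Ifit1 has a pair of ISRE matches, TTTCACTTTC at 104 to 95 and TTTCAGTTTC at 85 to 76 bases, and Rsad2 has TTTCATTTTC at 120 to 111 bases. Cd300lb, which fell, also holds a κB form (GGAAACACCC at 44 to 35 bases) followed by TATAAA, the same κB letters as the farther match of Cxcl1. Cxcl10 holds a further match to the ISRE core at 213 to 204 bases, outside the stretch shown.

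**Figure D2:**
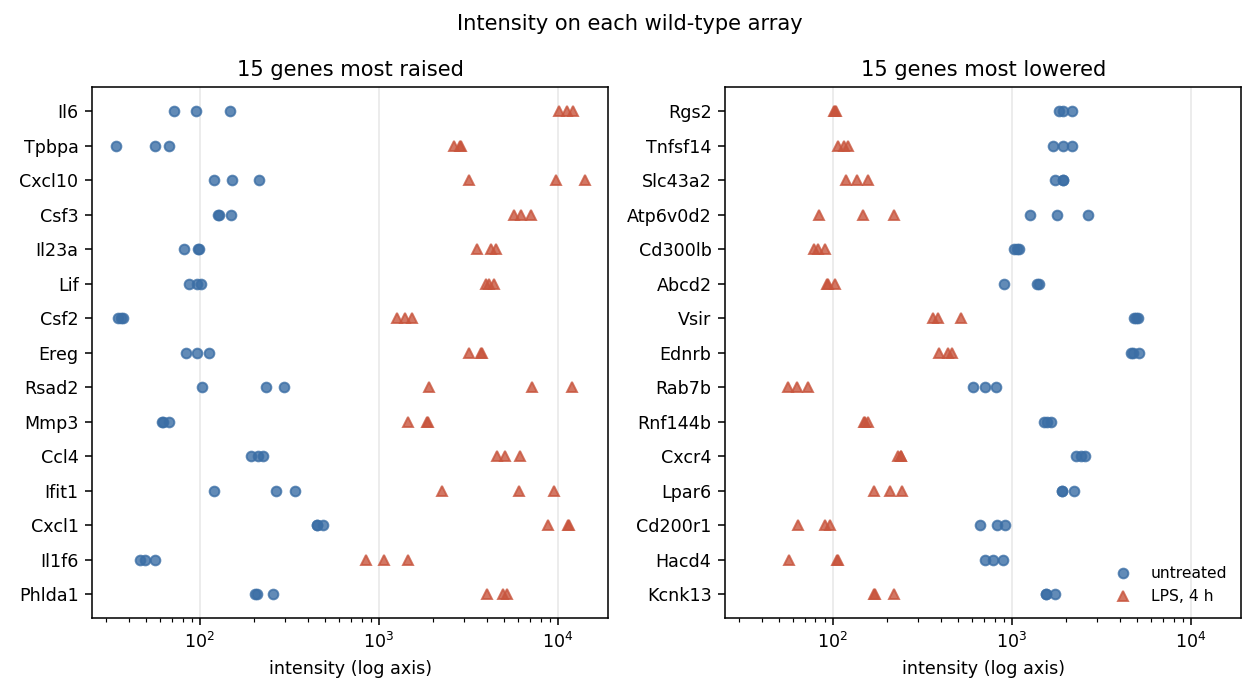
Intensity on each wild-type array (horizontal, log axis) for the 15 genes most raised (left) and the 15 most lowered (right) by LPS; each circle is an untreated array and each triangle an LPS array. The symbols of the groups do not overlap in any of the 30 genes, as the choice of these genes required, and Cxcl10, Rsad2 and Ifit1 are the raised genes whose LPS arrays lie widest apart.

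Signalling and surface proteins were among the genes that fell most. Rgs2, which shortens signalling by G proteins, read 1925, 1833 and 2158 untreated and 101, 104 and 103 with LPS (log2 difference -4.26, SE 0.36, limma adjusted p = 6.41e-06). Its 3 treated arrays were nearly equal and all far below the untreated ones. Tnfsf14, which encodes the TNF family ligand LIGHT, read 1933, 1695 and 2163 untreated and 107, 115 and 121 with LPS (log2 difference -4.07, SE 0.61, limma adjusted p = 0.000353). Vsir, the T cell checkpoint ligand VISTA, read 4791, 5057 and 4923 untreated and 387, 364 and 517 with LPS (log2 difference -3.56, SE 0.12, limma adjusted p = 7.19e-09). Cd300lb, a receptor that signals through DAP12, read 1033, 1072 and 1093 untreated and 78.1, 82.4 and 90.5 with LPS (log2 difference -3.67, SE 0.10, limma adjusted p = 2.18e-09). The treated arrays of Rgs2, Tnfsf14 and Cd300lb lay close together, and those of Vsir lay wider apart. Cd200r1, the inhibitory receptor for CD200, read 661, 820.5 and 919 untreated and 95.8, 90.9 and 64.2 with LPS (log2 difference -3.27, SE 0.17, limma adjusted p = 1.68e-07). These 5 are immune receptors, ligands or their regulators. In none did the groups overlap, which the choice of the most lowered genes required. Over all genes, every LPS array lay below every untreated one in 24.3%.

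G protein-coupled receptors formed another part of the 15 most lowered. Cxcr4, the receptor for the retention chemokine CXCL12, read 2440, 2556 and 2276 untreated and 231, 239 and 240 with LPS (log2 difference -3.36, SE 0.15, limma adjusted p = 4.96e-08). Its treated arrays were nearly equal. Ednrb, the endothelin B receptor, read 4603, 5102 and 4743 untreated and 460.5, 390.2 and 439 with LPS (log2 difference -3.49, SE 0.22, limma adjusted p = 5.97e-07). Lpar6, a receptor for lysophosphatidic acid, read 2216, 1904 and 1898 untreated and 171, 209 and 243 with LPS (log2 difference -3.28, SE 0.23, limma adjusted p = 1.79e-06). The others are transporters, channels and enzymes of membranes. Slc43a2, a carrier of large neutral amino acids, read 1918, 1928 and 1739 untreated and 136, 157 and 118 with LPS (log2 difference -3.77, SE 0.14, limma adjusted p = 1.37e-08). Atp6v0d2, a subunit of the vacuolar proton pump, read 1255, 2662 and 1780 untreated and 218, 148 and 83.6 with LPS (log2 difference -3.70, SE 0.57, limma adjusted p = 0.000439). Abcd2, a peroxisomal fatty acid transporter, read 908, 1388 and 1423 untreated and 93.4, 92.4 and 102 with LPS (log2 difference -3.66, SE 0.16, limma adjusted p = 3.84e-08). The remaining 4 were Rab7b, a small GTPase of late endosomes (-3.47), Rnf144b, an E3 ubiquitin ligase (-3.37), Hacd4, of very long chain fatty acid synthesis (-3.19), and the potassium channel gene Kcnk13 (-3.12).

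Genes with the smallest p values were not always those with the largest differences. Beside Csf2, Cd300lb, Vsir and Ccl4, the 10 held Rab11fip5, an effector of recycling endosomes, which read 2172, 2043 and 1863 untreated and 281, 274 and 258 with LPS (log2 difference -2.90, SE 0.07, limma adjusted p = 8.3e-10). Smarca2, a subunit of the SWI/SNF chromatin remodeller, read 596, 589 and 609.8 untreated and 140, 142 and 151 with LPS (log2 difference -2.05, SE 0.06, limma adjusted p = 4.8e-09). Tifab, an inhibitor of TRAF6 signalling, read 966, 1079 and 915 untreated and 142, 147 and 150.5 with LPS (log2 difference -2.75, SE 0.09, limma adjusted p = 7.19e-09). Rising with equal evenness were Nlrp3, the inflammasome sensor (2.74), Nfkbiz, which encodes the nuclear protein IκBζ (2.98), and Rnd1, a small GTPase (3.34). Ccl2, the monocyte chemoattractant named in the series title, read 869, 291 and 544 untreated and 2734, 5304 and 2789 with LPS (log2 difference 2.73, SE 0.53, limma adjusted p = 0.00219). Its untreated arrays ranged widely, and the second treated array was the brightest.

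The responses of gene lists were described by counts of called members, to be read against the 9.53% higher and 18.5% lower over all genes. Counts after the 75th-percentile centring are to be read against the 37.2% higher and 13.9% lower that it gave over all genes. Cytokine genes held 17 increases and 0 decreases among 23 measured members, with a median difference of 2.05 against 0.04 over all genes. Beyond those above, Inhba, which encodes activin A, rose by 3.83 and Tnf by 3.55. Ifnb1, the interferon-β gene, differed by 0.45 and was not called. It read 49.9, 43.9 and 44.1 untreated and 51.1, 84.9 and 56.9 with LPS, at the dim end of the scale and brightest on LPS replicate 2. Chemokine genes held 12 increases and 3 decreases among 23 members. Ccl7 rose by 3.25 and Cxcl5 by 2.97, while Ppbp, the platelet basic protein gene, fell by 1.12. The 3 decreases became 1 without LPS replicate 1, LPS replicate 2 or untreated replicate 3.

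TNF family ligands and receptors moved in both directions. Among 15 ligand genes 4 rose and 2 fell, and Tnfsf14 and Tnfsf13b (BAFF, -0.54) were the 2 that fell. Tnfsf15, the ligand TL1A, rose, and it read 149, 137 and 138 untreated and 1379, 1552 and 668 with LPS. Of 28 TNF receptor genes 4 rose and 7 fell as deposited, against 10 and 6 after centring on the 75th percentile. The 4 increases became 2 without LPS replicate 1, LPS replicate 2, untreated replicate 2 or untreated replicate 3. Cd40, the costimulatory receptor, read 758, 529.8 and 625 untreated and 4160, 5195 and 3707 with LPS (log2 difference 2.77, SE 0.17, limma adjusted p = 4.8e-07). Tnfrsf23 and Tnfrsf22, the mouse decoy receptors for TRAIL, also fell (-1.98 and -1.52). Interleukin receptor genes were split as well, with 8 of 37 higher and 9 lower as deposited and 14 and 6 after the centring. The 8 increases became 5 without LPS replicate 2 and 4 without untreated replicate 3. While Il6 itself led the response, both chains of its receptor fell. Il6ra, the binding chain, read 1210, 1352 and 1279 untreated and 231, 208 and 259 with LPS (log2 difference -2.46, SE 0.10, limma adjusted p = 3.15e-08). Il6st, which encodes the shared signal chain gp130, read 3601, 3209 and 3497 untreated and 1378, 1104 and 1501 with LPS (log2 difference -1.38, SE 0.16, limma adjusted p = 6.47e-05). Lifr, the receptor chain for LIF, rose by 2.56. Of 22 chemokine receptor genes 2 rose and 2 fell (6 and 2 after the centring; 1 rose without any 1 array but LPS replicate 2), led by Ccrl2 (3.16), an atypical receptor that binds chemerin, and Cxcr4.

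NF-κB genes and the brakes on TLR4 signalling rose together. Of 13 measured NF-κB and IκB genes 11 rose and 0 fell. Nfkbia, which encodes the cytoplasmic inhibitor IκBα, read 3308, 2564 and 2836 untreated and 8347, 8821 and 8683 with LPS (log2 difference 1.58, SE 0.12, limma adjusted p = 2.34e-06). Nfkb2 rose by 1.65, Nfkbib by 1.26 and Nfkbie by 1.06, whereas Rela, the main activating subunit, rose by only 0.59. Feedback inhibitors held 16 increases and 0 decreases among 22 members. Tnfaip3, the deubiquitinase A20, read 835, 952 and 875 untreated and 6248, 6659 and 5623 with LPS (log2 difference 2.80, SE 0.10, limma adjusted p = 1.28e-08). Peli1, a ubiquitin ligase of the same pathway, rose by 2.35, Zc3h12a, which encodes the mRNA-degrading nuclease regnase-1, by 2.15 and Tnip1 by 1.92. The sensors were less uniform. Among 25 toll-like receptor and adaptor genes 5 rose and 6 fell as deposited, and 7 rose and 5 fell after the centring. Tlr2, for bacterial lipoproteins, rose by 0.68 and Myd88 by 0.56. Cd180 and its partner Ly86, which resemble TLR4 and MD-2 in structure, fell (-2.05 and -0.96). Tlr13 and Tlr8, endosomal sensors of RNA, fell (-2.04 and -1.71). Of 24 dual-specificity phosphatase genes, which switch off MAP kinases, 8 rose and 7 fell, among them Dusp16 (2.13) and Dusp4 (1.69) upward and Dusp3 (-1.84) downward.

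Interferon-stimulated genes rose, with a wide spread between the treated arrays. Of 31 measured antiviral members 27 rose and 0 fell, with a median of 1.99. The count was 19 without LPS replicate 1, LPS replicate 2 or untreated replicate 3, and 29 without LPS replicate 3. The mean log2 level of the list was 9.11, 9.02 and 8.54 on the untreated arrays and 11.35, 12.05 and 9.95 on the LPS arrays. Replicate 3 was thus the lowest array of each group. Rsad2, which encodes the antiviral enzyme viperin, read 233, 294 and 103 untreated and 7148, 11950 and 1895 with LPS (log2 difference 4.83, SE 0.71, limma adjusted p = 0.000311). Ifit1, which binds foreign RNA caps, read 265, 339 and 119.8 untreated and 6018, 9492 and 2243 with LPS (log2 difference 4.51, SE 0.65, limma adjusted p = 0.000288). Even the lowest treated array exceeded the highest untreated one in both, as the choice of the most raised genes required. Over all genes this held for 23.2%. Oasl1 rose by 3.95 and Cmpk2 by 4.11. Ifit3 read 83.3, 172 and 52.2 untreated and 1992, 6256 and 152 with LPS (log2 difference 3.77, SE 1.14, limma adjusted p = 0.0275). Its treated array 3 lay below the second untreated one, and without LPS replicate 2 its limma adjusted p was 0.111 (log2 difference 2.60). The 10 called genes with the largest spread over the LPS arrays were Ifit3, Ifit2, Phf11a, Gbp4, Cmpk2, Cxcl9, Nt5c3, Phf11d, Ifi205 and Rsad2. All 10 were lowest on LPS replicate 3 and highest on LPS replicate 2. The fit without 1 array lost the call in at least 1 case for Ifit3, Ifit2, Phf11a, Gbp4, Cxcl9, Nt5c3 and Ifi205.

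Related interferon-inducible families had the same order of treated arrays in their mean level, with replicate 2 highest and replicate 3 lowest. This order was not theirs alone. The cytokine list (10.4, 10.68 and 10.16 on LPS replicates 1 to 3) and the chemokine list (11.19, 11.45 and 11.12) had it too. The NF-κB and IκB list did not (11.38, 11.4 and 11.42). Of 9 interferon-inducible GTPase genes 4 rose and 0 fell, and 6 rose without LPS replicate 3. Gbp5, a guanylate-binding protein, read 172, 143 and 143 untreated and 2463, 4239 and 1250 with LPS (log2 difference 3.95, SE 0.46, limma adjusted p = 6.02e-05). Its LPS arrays all lay above the untreated ones, as in 23.2% of all genes. The second treated array was the brightest, and array 3 the dimmest of the 3. Schlafen and SAM-domain genes held 8 increases and 1 decrease among 17 members, and the 8 became 5 without LPS replicate 1, LPS replicate 2, untreated replicate 2 or untreated replicate 3. Slfn4 rose by 2.11 and Slfn9 by 2.18. Genes of class I presentation held 4 increases and 0 decreases among 13 members, and 8 rose without LPS replicate 3. The peptide transporter genes Tap1 and Tap2 rose by 1.54 and 1.15. Class II genes went the other way, with 0 of 13 higher and 4 lower. Those were H2-DMa, the peptide-exchange chaperone (-1.23), and the lysosomal processing genes Ifi30 (-1.20), Lgmn (-0.71) and Ctss (-0.32), while H2-Aa and Cd74 were not called (-0.16 and -0.25). Jak2 rose by 2.11 and Stat2 by 1.65, and Ifngr1, the receptor for interferon-γ, fell by 1.23.

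**Figure D3:**
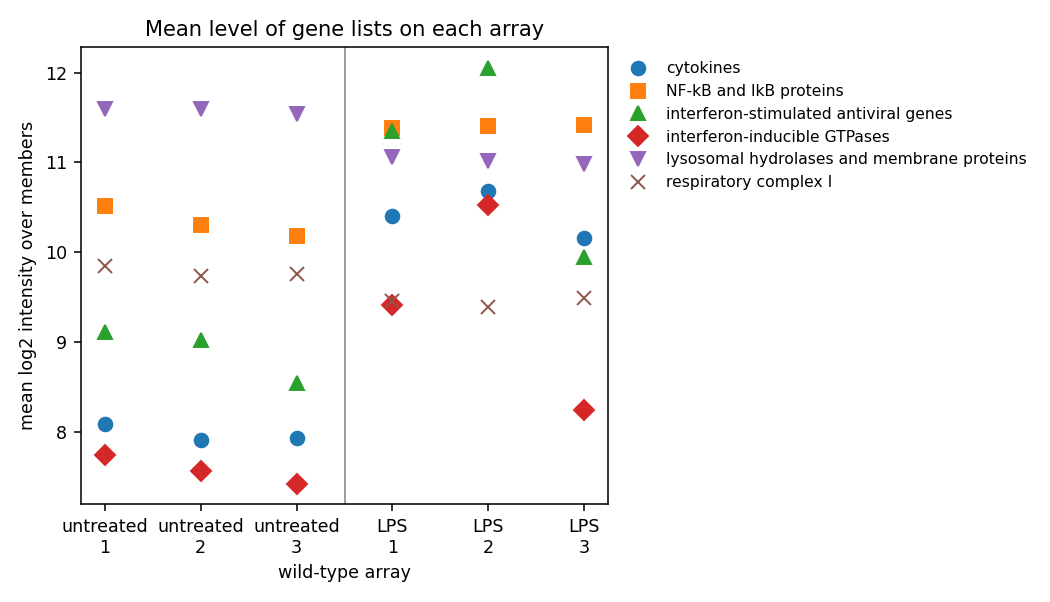
Mean log2 intensity over the measured members of 6 gene lists (vertical axis) on each of the 6 wild-type arrays (horizontal axis); heights may be compared between arrays within a list, not between lists. Cytokine, NF-κB and both interferon lists stand higher on the LPS arrays, and the interferon-stimulated genes run from 9.95 on LPS replicate 3 to 12.05 on LPS replicate 2.

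Enzymes that make mediators rose strongly. Of 17 effector enzyme genes 10 rose and 1 fell. Hdc, which makes histamine, read 380, 275 and 442 untreated and 6942, 7875 and 7839 with LPS (log2 difference 4.39, SE 0.46, limma adjusted p = 2.71e-05). Nos2, the inducible nitric oxide synthase, read 552, 461 and 281 untreated and 4147, 8894 and 3131 with LPS (log2 difference 3.55, SE 0.63, limma adjusted p = 0.00122). Ch25h, which makes the oxysterol 25-hydroxycholesterol, read 94.04, 71.9 and 73.5 untreated and 818, 1999 and 480.2 with LPS (log2 difference 3.54, SE 0.54, limma adjusted p = 0.000426). In all of these every LPS array lay above every untreated one, as it did in 23.2% of all genes. Acod1, the source of itaconate, rose by 1.92 and Odc1, of polyamine synthesis, by 1.96. Prostanoid synthesis was divided between its branches. Ptgs2, the inducible cyclooxygenase, rose by 2.14 and Ptges, the prostaglandin E synthase, by 1.35. Tbxas1, the thromboxane synthase, fell by 1.53. The leukotriene genes Alox5, for the entry enzyme, and Lta4h fell (-1.20 and -1.16). The list as a whole held 4 higher and 8 lower of 19.

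Single genes of the acute-phase, clotting and matrix lists rose by large amounts. Of 20 acute-phase and antimicrobial genes 7 rose, 4 of them at least 2-fold, and 0 fell, with a median of 0.26. The acute-phase genes Saa1 (0.065), Saa3 (0.22) and Hp (-0.80) were not called. Plat, the tissue plasminogen activator, read 107, 104 and 114 untreated and 2093, 1863 and 1161 with LPS (log2 difference 3.94, SE 0.33, limma adjusted p = 6.15e-06). F3, the clotting initiator tissue factor, read 1077, 858 and 1055 untreated and 8540, 9033 and 8263 with LPS (log2 difference 3.12, SE 0.31, limma adjusted p = 1.74e-05). Lcn2, the siderophore-binding lipocalin-2, rose by 3.42. Among 30 metalloproteinase and TIMP genes 7 rose and 5 fell, with Mmp13 at 2.00 beside Mmp3, and Mmp19 at -1.77. Of 21 complement genes 1 rose, Cfb of the alternative pathway (1.07), and 4 fell, including the anaphylatoxin receptor C3ar1 (-1.17). Adhesion genes held 9 increases and 4 decreases among 21 members, with Jam2 at 2.10 and Vcam1 at 1.47.

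Immediate-early and cell death genes were mixed. Of 27 immediate-early genes 12 rose and 3 fell at this 4 h time point. Maff, a small MAF protein, rose by 2.36, Gadd45b by 2.16 and the orphan receptor gene Nr4a3 by 2.11. Egr2, an early growth response factor, read 2503, 2623 and 2309 untreated and 578, 319 and 553 with LPS (log2 difference -2.41, SE 0.29, limma adjusted p = 7.75e-05). Fos was not called (-0.68). Among 25 inflammasome and cell death genes 8 rose and 6 fell, and parts of the same machine moved in opposite directions. Nlrp3, the sensor, read 1139, 906 and 1025 untreated and 6869, 7076 and 6474 with LPS (log2 difference 2.74, SE 0.09, limma adjusted p = 7.19e-09). Pycard, which encodes the adaptor ASC that joins sensor to caspase, read 1422, 1073 and 1410 untreated and 199.8, 275 and 299 with LPS (log2 difference -2.35, SE 0.18, limma adjusted p = 3.14e-06). Likewise Mlkl, the executor of necroptosis, rose by 1.31 and Ripk3, the kinase that activates it, fell by 1.53. Cflar, a caspase-8 inhibitor, rose by 2.00.

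Growth and transcription regulators added single large changes. Among 34 C/EBP, MAF and lineage factor genes 9 rose and 3 fell. Cebpa, a factor of myeloid differentiation, read 1373, 1343 and 1402 untreated and 283, 312 and 320.5 with LPS (log2 difference -2.17, SE 0.13, limma adjusted p = 6.01e-07). Hivep3 rose by 2.63 on the probe set kept and was not called on its other probe set (0.12). Of 59 histone and DNA modifier genes 8 rose and 19 fell as deposited, against 21 and 16 after the centring. The 8 increases became 5 without untreated replicate 2 or untreated replicate 3. Kdm6b, which removes methyl groups from lysine 27 of histone H3, read 569.6, 450.5 and 486 untreated and 2643, 2454 and 2558 with LPS (log2 difference 2.35, SE 0.22, limma adjusted p = 1.11e-05). Dnmt1, the maintenance DNA methyltransferase, read 754, 722 and 645 untreated and 224, 199 and 267 with LPS (log2 difference -1.63, SE 0.13, limma adjusted p = 3.74e-06). Of 30 cell cycle genes 2 rose, Ccnd2 (2.53) and Mki67 (2.47), and 7 fell, among them Rb1 (-1.32) and Ccnd3 (-1.17). DNA replication and repair genes held 12 decreases and 1 increase among 34 members, Tyms (1.50), with the checkpoint kinase gene Chek2 at -1.55 and Parp1 at -1.32. In the TGF-β and BMP list 10 of 25 rose and 6 fell, and both receptor chains, Tgfbr1 and Tgfbr2, were among the latter (-1.22 and -1.33).

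Lysosomal genes fell broadly and by small amounts. Of 40 genes for lysosomal hydrolases and membrane proteins 29 fell and 0 rose, with a median of -0.48, and 23 fell and 0 rose after centring on the 75th percentile. Lipa, which hydrolyses cholesteryl esters, read 6182, 5937 and 5693 untreated and 2513, 2254 and 2120 with LPS (log2 difference -1.37, SE 0.31, limma adjusted p = 0.00573). Npc1, which exports cholesterol from lysosomes, read 3020, 3634 and 3341 untreated and 1701, 1440 and 1485 with LPS (log2 difference -1.11, SE 0.15, limma adjusted p = 0.000152). Smpd1, the acid sphingomyelinase, fell by 1.14 and Manba, a mannosidase, fell by 1.29. Tfeb, the factor known for driving lysosomal genes through E-box-like sites, fell by 0.97. The E-box CACGTG was present in 9 of the 36 windows found for this list and in 8.41% of all windows. Autophagy genes held 11 decreases and 0 increases among 25 members as deposited (10 and 5 after the centring), with Uvrag at -1.53 and Atg5 at -1.06. Of 23 vacuolar proton pump genes 2 rose and 7 fell, a majority that turned to 6 and 5 after the centring, and Atp6v0d2 was the member that fell most. Pla2g15, a lysosomal phospholipase, read 2794, 2941 and 3217 untreated and 384, 351 and 503 with LPS (log2 difference -2.87, SE 0.21, limma adjusted p = 2.39e-06).

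Receptors for uptake and inhibition fell in several families. Of 17 Fc receptor and ITAM signalling genes 10 fell and 3 rose, with a median of -0.54. Nfam1, an ITAM receptor, read 2303, 2368 and 2299 untreated and 334, 180.1 and 449.5 with LPS (log2 difference -2.95, SE 0.44, limma adjusted p = 0.000327). Inpp5d, the lipid phosphatase SHIP1, fell by 1.52, and so did the exchange factor gene Vav1 (-1.25) and the signalling adaptor gene Card9 (-1.07), while Trem3 rose by 1.57. CD300 and other inhibitory receptor genes held 10 decreases and 3 increases among 23 members, with Cd300a at -2.44 and Clec4a3 at -1.68. Among 28 scavenger and uptake receptor genes 8 fell and 4 rose as deposited, and 6 fell and 7 rose after the centring. Scarb1, the HDL receptor, fell by 1.61 and Stab1 fell by 1.33, whereas Mrc1, the mannose receptor, rose by 0.87. Of 20 costimulation and checkpoint genes 6 rose and 4 fell, and Cd80 rose by 2.20 as Vsir and Cd200r1 fell. In the list of large peritoneal macrophage identity, 6 of 23 genes fell and 2 rose (5 and 5 after the centring). Nt5e, the ectoenzyme CD73, read 4636, 3439 and 5059 untreated and 725, 979 and 906 with LPS (log2 difference -2.32, SE 0.36, limma adjusted p = 0.000489). Gata6, the factor that defines these cells, was not called (0.46), but was called higher after the centring and with the replicate number as a fixed term on the 6 wild-type arrays.

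The share of G protein signalling genes that fell was near that of all genes, and single members changed strongly. Rgs18 read 465, 396 and 473 untreated and 74.01, 90.02 and 79.3 with LPS (log2 difference -2.46, SE 0.12, limma adjusted p = 1.4e-07). Of 22 RGS genes 4 fell (18.2%, against 18.5% of all genes) and 1 rose as deposited, and 4 fell and 9 rose after the centring. Among 105 purinergic, lipid and other G protein-coupled receptor genes 21 fell and 10 rose, and 18 fell and 41 rose after the centring. Over all genes the centring gave 37.2% higher and 13.9% lower, so these counts lie near the background on both scales. The 10 increases became 6 without untreated replicate 3. Cysltr1, a receptor for cysteinyl leukotrienes, read 2669, 2136 and 2421 untreated and 431, 675 and 392 with LPS (log2 difference -2.31, SE 0.22, limma adjusted p = 1.46e-05). S1pr1, for sphingosine-1-phosphate, fell by 1.55, Ptger4, for prostaglandin E2, fell by 1.42, and Gpr84, for medium-chain fatty acids, rose by 1.70.

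Mitochondrial and lipid metabolism genes fell in several lists. In the tricarboxylic acid cycle list 17 of 25 fell and 2 rose (14 and 2 after the centring). Idh1, the cytosolic isocitrate dehydrogenase, read 4873, 4829 and 4175 untreated and 857, 667 and 889 with LPS (log2 difference -2.53, SE 0.13, limma adjusted p = 1.43e-07). Pdk2, a kinase that inhibits pyruvate dehydrogenase, read 761, 717 and 744 untreated and 122, 125 and 179 with LPS (log2 difference -2.40, SE 0.14, limma adjusted p = 4.53e-07). Those were the largest of the list, and Idh2, the mitochondrial enzyme, fell by 1.06. Respiratory complex I genes held 20 decreases and 0 increases among 34 members (14 and 1 after the centring), with Ndufa8 the lowest (-0.70). Of 44 genes for complexes III to V 15 fell and 0 rose as deposited, 5 and 5 after the centring, and 9 fell without untreated replicate 1 or untreated replicate 2. Fatty acid oxidation and PPAR genes held 15 decreases and 2 increases among 31 members. Hadh, a β-oxidation dehydrogenase, read 1281, 1406 and 1220 untreated and 274, 228 and 262 with LPS (log2 difference -2.36, SE 0.09, limma adjusted p = 1.28e-08). Acaa2, the mitochondrial thiolase, fell by 1.62 and Acadm fell by 1.40, whereas the acyl-CoA synthetase gene Acsl4 rose by 0.90.

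Fatty acid synthesis genes and LXR targets fell in 9 of 22 cases and rose in 1. Fads1, a fatty acid desaturase, read 1732, 1553 and 1711 untreated and 370, 257 and 535 with LPS (log2 difference -2.17, SE 0.29, limma adjusted p = 0.000144). Scd2, which makes monounsaturated fatty acids, fell by 2.09, and Acaca, the acetyl-CoA carboxylase, fell by 1.39. Abcg1, a cholesterol exporter, fell by 1.35. Abca1 was not called (0.20). Of 20 sterol synthesis genes 6 fell and 1 rose (5 and 5 after the centring), with Dhcr7 at -1.56. Glycolysis and hypoxia genes held 8 decreases and 3 increases among 29 members as deposited, against 4 and 6 after the centring. Hk2, the inducible hexokinase, rose by 1.27, and the 8 decreases became 3 without LPS replicate 1 or LPS replicate 2, 4 without untreated replicate 1 or untreated replicate 3, and 5 without untreated replicate 2. Amino acid transporter genes held 9 increases and 10 decreases among 43 members (20 and 8 after the centring). Slc1a2, a glutamate carrier, read 96.3, 96.1 and 89.1 untreated and 905, 1083 and 421 with LPS (log2 difference 2.99, SE 0.42, limma adjusted p = 0.000234). Slc7a1, a carrier of arginine, rose by 1.22, while Slc36a1, a lysosomal amino acid carrier, fell by 2.04 and Slc1a5, a glutamine carrier, fell by 1.57. Among 21 metal and iron handling genes 3 rose and 6 fell (8 and 5 after the centring), with the zinc importer gene Slc39a14 at 1.83 and Steap3, an endosomal iron reductase, at -1.97.

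Protein synthesis and turnover lists shifted by small amounts in opposite directions. Cytosolic ribosomal protein genes held 25 decreases and 0 increases among 61 members as deposited, and 6 fell and 4 rose after the centring. The 25 became 16 without LPS replicate 2, untreated replicate 1 or untreated replicate 3. Mitochondrial ribosomal protein genes held 31 decreases and 4 increases among 77 members (20 and 11 after the centring), with Mrpl42 at -1.51. The 4 increases of that list became 2 without LPS replicate 1 and 1 without LPS replicate 2, LPS replicate 3 or untreated replicate 2. Proteasome genes held 18 increases and 4 decreases among 48 members (29 and 2 after the centring). Psma6, a subunit of the core particle, read 1589, 1610 and 1558 untreated and 3289, 2954 and 3667 with LPS (log2 difference 1.05, SE 0.09, limma adjusted p = 5.61e-06). Psmd14, the deubiquitinase of the lid, rose by 0.64, and the assembly chaperone Psmg1 fell by 0.76. Chaperone genes held 8 increases and 2 decreases among 29 members, and the 8 became 4 without LPS replicate 1, untreated replicate 2 or untreated replicate 3. Hspa5, the endoplasmic reticulum chaperone BiP, rose by 1.09. Of 316 zinc finger genes named Zfp 101 fell and 14 rose (65 and 49 after the centring), and 66 fell without untreated replicate 1. The 14 increases became 8 without LPS replicate 1 or untreated replicate 3, and 9 without LPS replicate 2 or untreated replicate 2. Zfp931 fell by 1.76 and Zfp558 rose by 2.05.

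**Figure D4:**
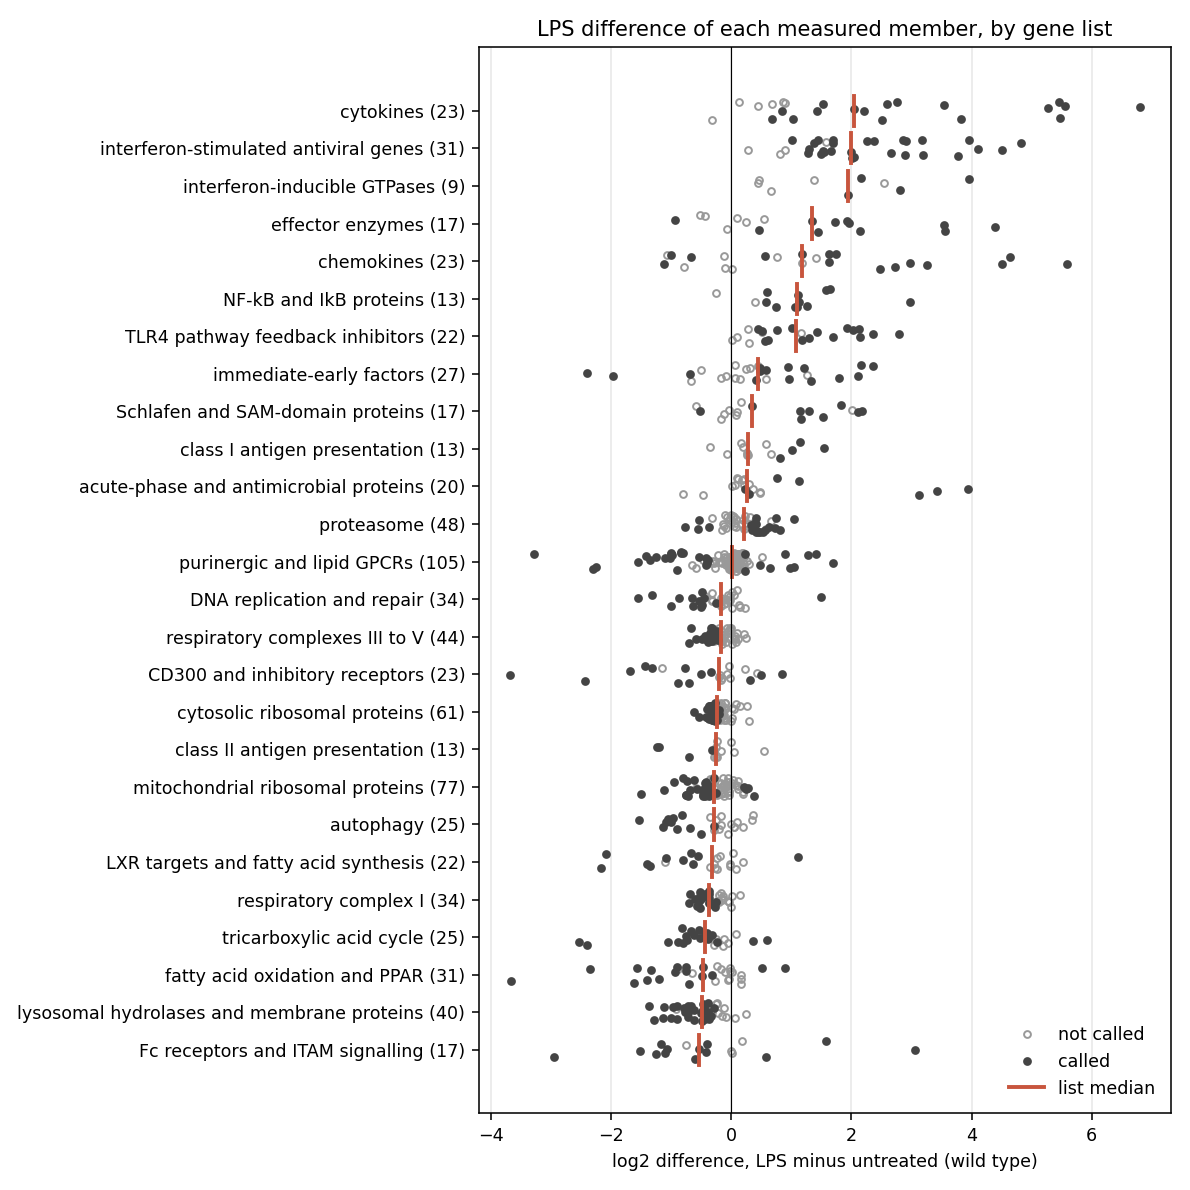
Log2 difference between LPS and untreated wild-type arrays (horizontal axis) of every measured member of 26 gene lists (vertical axis, number of measured members in brackets); filled circles were called, open circles were not, and red bars are list medians. The cytokine list has the highest median (2.05) and the Fc receptor and ITAM list the lowest (-0.54); medians near 0 depend on the array scaling, and that of complexes III to V moved from -0.17 to -0.01 with the 75th-percentile centring.

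Most large responses of wild-type cells were not called different in cells without IκBζ. The difference of both LPS responses was called for 149 genes (0.747%), of which 101 were among the 5594 called in wild type. Among the 1205 genes changed at least 2-fold it was called for 42 (3.49%), including 27 raised genes with a smaller response in the knockout and 9 with a larger. These 1205 genes were chosen by their wild-type difference, and the same wild-type arrays enter the difference between genotypes with opposite sign. That choice tilts raised genes toward a smaller response in the knockout, so the 3.49% and the split cannot be read against all genes. A response not called different is not shown to be the same. Csf2 rose by 5.27 in wild type and by 0.49 in the knockout (difference -4.78, limma adjusted p = 2.62e-08). Lcn2 went from 3.42 to 0.18 (difference -3.24, limma adjusted p = 0.00262), and Vcam1 from 1.47 to 4.29 (difference 2.82, limma adjusted p = 0.0303). The count of 101 was 205 without LPS replicate 2, and 34 without LPS replicate 1, untreated replicate 2 or untreated replicate 3. It was 55 without LPS replicate 3 and 38 without untreated replicate 1.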

How the data were processed

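RNA of peritoneal macrophages was read on 1-colour Affymetrix whole-transcript arrays. Per the submitters' processing notes, the authors ran RMA with Affymetrix Expression Console 1.1, and the deposited values are intensity on a linear scale. The sources used here give neither its settings nor the genome build of the probe annotation. RMA in general equalises distributions between arrays, so a shift of most transcripts one way would not be seen, and dim intensities understate fold changes. Values were turned to log2 here, with no pseudocount added. Wild-type intensities ran from 6.96 to 22198, array medians from 113.3 to 118.7, and correlations within a group from 0.987 to 0.994. No arrays held identical values.

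Of 35556 probe sets, GEO's platform annotation names 1 gene for 21789, several for 1621 and none for 12146. Of the first, 21698 were found in the RefSeq gene table and 0 symbols were updated. Where a gene had more than 1 probe set (999 genes), that of highest mean over 12 arrays stood for it. This left 19938 genes.

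Differences were fitted by limma 3.58.1 in R 4.3.3 (two-sided, lmFit then eBayes), using 4 group means over 12 arrays and 8 residual degrees of freedom. Benjamini-Hochberg adjustment ran over all 19938 genes, and an adjusted p under 0.05 was a call. Every adjusted p in the text comes from this fit unless said otherwise. On simulated data for this comparison, run on 19938 genes, the fit recovered 84% of planted 2-fold changes and 98% of planted 4-fold ones and called 7 unchanged genes. Changes were planted only outside the dimmest genes, and the noise was normal and independent between genes and arrays. The deposited arrays have spread that genes share, so these figures do not carry over to them. The number of arrays limits the precision.

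The genes, the lists and the rule for naming genes were chosen with earlier results of these data known. Named genes are Nfkbiz and Ccl2, the 15 most raised and 15 most lowered whose groups do not overlap, the 10 with the smallest p, the 10 with the largest spread over the LPS arrays, and up to 6 members at each end of every list. Predicted genes, small RNAs, pseudogenes and chemosensory receptor genes were passed over. Of 3357 list entries 3267 were measured, and 1 interleukin receptor entry was corrected after the values were seen. Lists are described by counts and medians, with no test of their own. Promoter and microRNA sequences came from RefSeq. Alternatives were other scalings, array weights, a trended robust fit, removal of dim genes, all probe sets, a pseudocount of 16, a replicate block, the 6 wild-type arrays alone, a threshold of 0.01, a minimum fold of 1.5, and each wild-type array left out. The fixed replicate term on the 6 wild-type arrays was added after the data were seen.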

Additional observations from a re-analysis of the deposited data

Results flagged for a closer look

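The LPS response of several genes named above differed between wild-type and Nfkbiz-/- cells by a test of the difference itself (limma, adjusted over 19938 genes). In Csf2, Lcn2, Rnd1, Edn1, Tyms and Psma6 the response was smaller without IκBζ. The genes named above were mostly chosen by their wild-type difference, which enters this test with opposite sign. How many go each way is therefore tilted by that choice. Csf2 rose by 5.27 in wild type against 0.49 in the knockout (difference -4.78, limma adjusted p = 2.62e-08). Lcn2 responded by 3.42 and 0.18 (difference -3.24, limma adjusted p = 0.00262), and Rnd1 by 3.34 and 1.72 (difference -1.62, limma adjusted p = 0.000711). The other 5 differences lay nearer the threshold. For Edn1, which encodes the vasoconstrictor endothelin-1, the values were 2.74 and 1.16 (difference -1.58, limma adjusted p = 0.0444). Tyms gave 1.50 and 0.44 (difference -1.06, limma adjusted p = 0.0419), and Psma6 gave 1.05 and 0.29 (difference -0.76, limma adjusted p = 0.0192). Vcam1 responded more in the knockout, by 4.29 against 1.47 (difference 2.82, limma adjusted p = 0.0303). Smarca2 fell in both, by 2.05 in wild type, with a difference of 0.54 between the responses (limma adjusted p = 0.0207). How each of these differences holds without 1 array is not shown here.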

How the results depend on the processing

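Scaling, weighting and thresholds moved the counts of called genes more than the responses themselves. With each array centred on its 75th percentile, 10190 genes were called, 7416 higher, and 72.8% of called genes were higher; after quantile normalization 44.5% were. Array weights gave 10113 calls, 5077 higher, 50.2% higher and 479 that also passed for the difference between genotypes. At an adjusted p under 0.01 there were 3673 calls, 1083 higher, 29.5% higher and 20 for the difference between genotypes. A minimum fold of 1.5 gave 950 calls, 312 higher, 638 lower and 5 for the difference between genotypes. Leaving out 1 array at a time gave 4389 to 5462 calls, 1278 to 1748 higher, 2921 to 3732 lower, 29.1% to 37.4% higher, and 1078 to 1394 changed at least 2-fold. The count for the difference between genotypes ran from 34 to 205, the highest without LPS replicate 2. The filter on dim genes tested 10722 genes and called 5178. Depth is not defined for arrays, and dim genes have the least room to show a decrease.

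The titles number replicates 1 to 3 in both groups and do not say whether equal numbers mark paired arrays. In wild type the correlations of same-numbered deviations from the group mean were -0.07, 0.14 and 0.36. Those of differently numbered arrays ran from -0.30 to 0.33. With 3 arrays per group these values cannot decide whether the arrays are paired. Same-numbered knockout arrays, which enter the shared spread and the difference between genotypes, correlated at 0.32, 0.57 and 0.46, each above 0.1. With the replicate block as a fixed term the count for that difference was 80 in place of 101. With the replicate block as a fixed term 5599 genes were called, 1871 higher and 3728 lower, with it as a random term (correlation 0.013) 5631, and as a fixed term on the 6 wild-type arrays 5908. The 6 wild-type arrays without a block gave 6123.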

Other observations

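The arrays also carry probe sets for microRNA genes, which the rule for naming genes passed over, so those below were chosen after their values were seen. Of 297 such genes 28 were called higher (9.43%, near the 9.53% of all genes) and 3 lower. The probe sets read the gene's RNA in general, not the mature microRNA. Mir155, known for its role in macrophage activation, read 251, 175 and 183 untreated and 2050, 2224 and 1861 with LPS (log2 difference 3.35, SE 0.13, limma adjusted p = 1.4e-08). Mir221 read 42.7, 39.2 and 39.8 untreated and 131, 137 and 138 with LPS (log2 difference 1.74, SE 0.20, limma adjusted p = 5.57e-05), and its neighbour Mir222 read 55.9, 46.2 and 50.8 untreated and 134, 146 and 134 with LPS (log2 difference 1.44, SE 0.17, limma adjusted p = 6.84e-05). Mir146, the miR-146a gene, and Mir146b rose by 0.76 and 0.71. Mir146 was dim, at 18.12, 17.45 and 15.15 untreated and 26.22, 34.85 and 25.57 with LPS. The array medians ran from 113.3 to 118.7. The mature sequences that these genes encode are shown because they fall into 3 seed groups, with the seed (bases 2 to 8) in capitals. They are from RefSeq (GRCm38.p6), at chr16:84714143-84714165 (plus), chrX:19146307-19146329 (minus), chrX:19146901-19146923 (minus), chr11:43374435-43374456 (minus) and chr19:46342790-46342811 (plus), in this order.
mmu-miR-155-5p: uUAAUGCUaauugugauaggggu
mmu-miR-221-3p: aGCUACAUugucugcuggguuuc
mmu-miR-222-3p: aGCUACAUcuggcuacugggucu
mmu-miR-146a-5p: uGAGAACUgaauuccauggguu
mmu-miR-146b-5p: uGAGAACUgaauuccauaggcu
The products of Mir221 and Mir222 share a seed, as do those of Mir146 and Mir146b.

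Other lists held members at both ends. Of 41 MAP kinase genes 10 rose and 8 fell, with Map4k4 at 1.37 and Map3k1, an upstream kinase, at -1.07. Of 20 growth factor genes 4 rose and 1 fell, with Edn1 at 2.74 and Hgf at -0.84. Of 58 TRIM ubiquitin ligase genes 6 rose and 10 fell on the deposited scale, against 26 and 5 with the 75th-percentile centring. The 10 decreases became 5 without LPS replicate 2 or untreated replicate 1, and 6 without untreated replicate 3. Without LPS replicate 3, 13 TRIM genes rose, and Trim21, an antibody receptor of the cytosol, gave 1.42 with all arrays. Among 16 clock genes 2 rose and 4 fell (3 and 3 after the centring), and Dbp, an output gene of the clock, read 731, 902 and 649.5 untreated and 176, 215 and 210 with LPS (log2 difference -1.92, SE 0.25, limma adjusted p = 0.000139). The 4 decreases of clock genes became 2 without LPS replicate 1, LPS replicate 2, untreated replicate 2 or untreated replicate 3. Of 20 pentose phosphate and NRF2 target genes 6 fell and 2 rose, with Gpx1, a glutathione peroxidase, at -1.39 and Txnrd1 at 0.96.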
